A study of Homo sapiens with 8 samples.

Results

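The addition of the EZH2 inhibitor EPZ6438 to enzalutamide was examined in C4-2B cells by comparing 2 libraries from cells given both agents (Combination) with 2 libraries from cells given enzalutamide without it (ENZ). These 4 libraries are part of a series of 8, which also has 2 DMSO libraries and 2 libraries with EPZ6438 and no enzalutamide (EPZ). C4-2B is an established prostate cancer line derived from LNCaP that grows without androgen supplements. Treatment lasted 7 days in each group. Given alone, ENZ was used at 10 uM and EPZ at 1 uM, and the labels give no separate doses for Combination. The deposited values are FPKM, fragments scaled to gene length and to library size. Of 26443 genes with values, the 11874 that averaged 1 FPKM or more across the 8 libraries were tested on the log2(FPKM + 1) scale, which understates the change of low genes. Changes are Combination minus ENZ on that scale unless stated, and a gene was called higher or lower at a Benjamini-Hochberg adjusted p under 0.05 in limma's moderated test.

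EZH2 is the catalytic subunit of PRC2, a complex that methylates histone H3 on genes it keeps silent, and EPZ6438 (tazemetostat) blocks this activity. Enzalutamide blocks androgen signalling and so lowers androgen-induced genes such as KLK3, which encodes prostate-specific antigen. In prostate cancer EZH2 has also been described as a factor that acts on androgen signalling and on the cell cycle.

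Libraries were estimated to hold 15400000 to 24400000 fragments, with 19300000 and 21800000 in ENZ and 19300000 and 16400000 in Combination. Whether the 2 replicates of a group were grown apart is not stated in the labels. A p-value here therefore reflects the spread between these libraries, and that spread may be technical. The replicates correlated across the tested genes at r = 0.992 to 0.996. All 8 prostate luminal markers passed the expression filter, with a summed level of 883 to 887 FPKM in ENZ and 986 to 1012 in Combination. Basal markers (KRT5, KRT14, TP63) summed to at most 0.184 FPKM and endothelial markers to at most 0.857 in any library. The 4 fibroblast markers summed to 3.58 to 4.62 FPKM in ENZ and 10.7 in both Combination libraries. That was almost all COL1A1, while COL1A2 was listed at 0 in every library. The 3 immune markers summed to 6.46 to 6.92 and 11 to 12.1 FPKM, almost all CD68, with CD3E listed at 0 throughout. Neuroendocrine markers summed to 8.49 to 8.81 FPKM in ENZ and 7.75 to 8.46 in Combination, mostly ENO2. As these are bulk RNA samples, fewer cells of a type and less RNA per cell cannot be told apart.

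With EPZ6438 added to ENZ, more of the tested genes were lower than higher as deposited. Of 11874 tested genes, 3001 were higher (25.3%) and 5402 lower (45.5%), and 427 were at least 2-fold higher (3.6%) and 967 at least 2-fold lower (8.14%). The median change of all tested genes was -0.15 as deposited. Summed FPKM were 276531 to 283211 in the ENZ libraries and 218646 to 224223 in the Combination libraries, so the libraries were also compared after median-of-ratios scaling. This moved the median by 0.16, to 0.012, and gave 4235 genes higher (35.7%) and 4032 lower (34%). The share of higher calls was 35.7% as deposited and 51.2% after scaling. Of the calls, 7033 had the same direction under both and 0 had opposite directions. The plot of levels by library shows the genes with the highest and lowest changes. These were chosen so that ENZ and Combination libraries did not overlap, so that separation is not a result of its own.

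**Figure D1:**
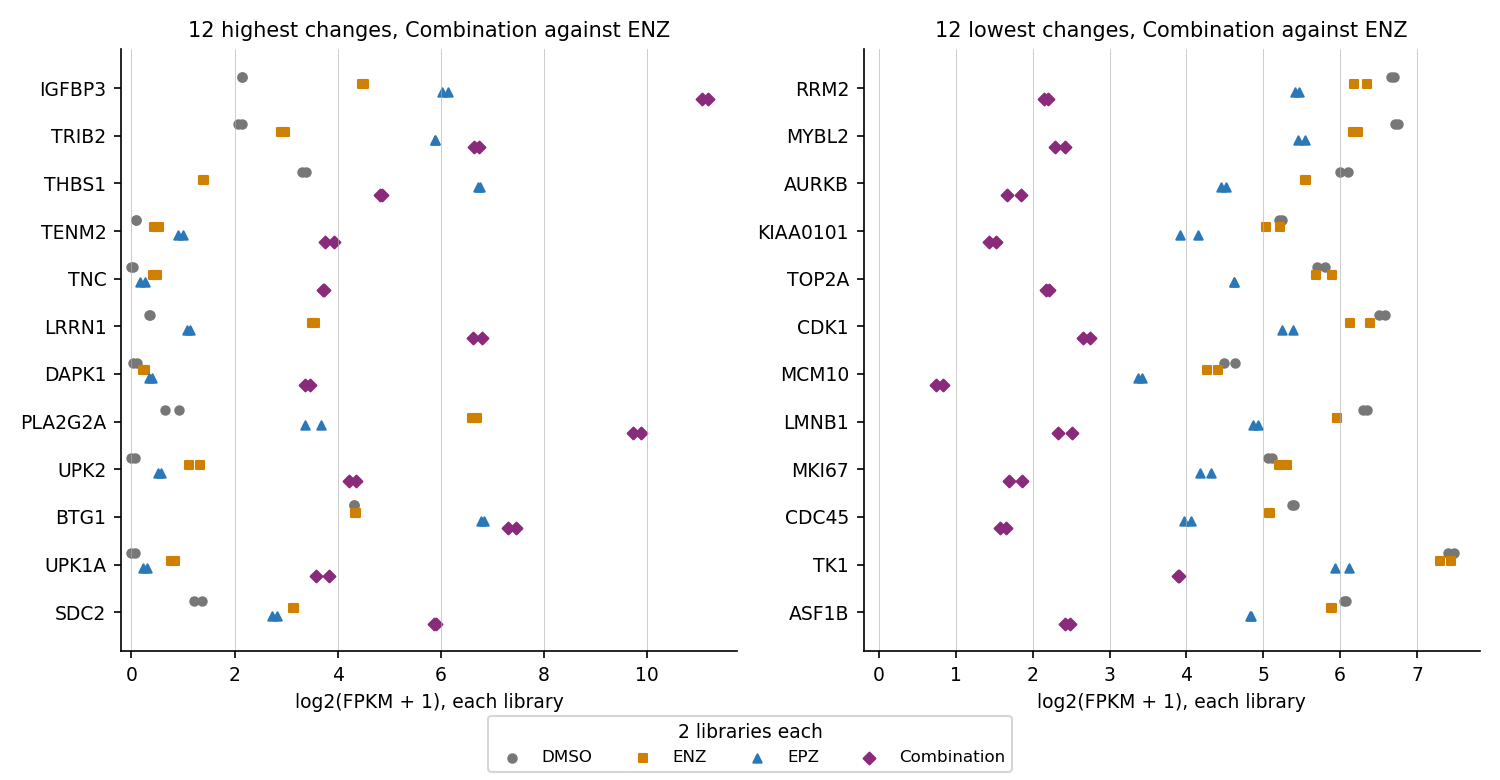
Levels of the 12 genes with the highest (left) and 12 with the lowest (right) change of Combination against ENZ, as log2(FPKM + 1) in each of the 8 libraries; each symbol is 1 library and each group has 2. The choice of the 24 genes required both Combination libraries to lie outside both ENZ libraries. IGFBP3 stood at 2152 and 2331 FPKM in Combination against 21.3 and 21.6 in ENZ.

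IGFBP3, which encodes a secreted binding protein of insulin-like growth factors, had the highest change of all tested genes. The gene lies at chr7:45912245-45921272 (RefSeq, GRCh38.p14). Its level was 3.45 and 3.45 FPKM with DMSO, 21.3 and 21.6 with ENZ, 69.2 and 64.1 with EPZ and 2152 and 2331 with Combination. The groups did not overlap, and the Combination mean was 104-fold the ENZ mean. The change was 6.64 (SE 0.061) with ENZ present and 3.93 (SE 0.061) without it. Their difference of 2.71 (SE 0.086) passed (adjusted p = 2.88e-07, limma).

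Among the 12 genes named for the highest change, those encoding matrix and cell surface proteins are given first. COLCA1, annotated as antisense to COLCA2, had a change of 4.81 and was left out of the 12 with other antisense genes (it is named after its value was seen). THBS1, the matrix glycoprotein thrombospondin 1, went from 1.6 and 1.65 FPKM in ENZ to 27.1 and 27.8 in Combination. Its EPZ libraries, at 108 and 105 FPKM, stood above those of Combination. TNC, the matrix protein tenascin C, went from 0.338 and 0.411 FPKM in ENZ to 12.2 and 12.3 in Combination, and its level in EPZ was 0.2 and 0.12. TNC exceeded 1 FPKM in no library outside Combination. The teneurin gene TENM2 went from 0.355 and 0.442 FPKM in ENZ to 12.6 and 14.3 in Combination, and the heparan sulfate proteoglycan gene SDC2 from 7.8 and 7.94 FPKM in ENZ to 59.4 and 57.4 in Combination. LRRN1, which encodes a leucine-rich repeat membrane protein, went from 10.4 and 10.8 FPKM in ENZ to 97.5 and 111 in Combination. These matrix and surface genes had changes of 3.44 for THBS1, 3.36 for TENM2, 3.27 for TNC, 3.18 for LRRN1 and 2.74 for SDC2.

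The uroplakin genes UPK2 and UPK1A, whose products form membrane plaques in the urinary tract lining, also rose together. UPK2 stood at 1.5 and 1.18 FPKM in ENZ and 17.7 and 19.5 in Combination, and UPK1A at 0.797 and 0.704 and 11 and 13.2. Neither exceeded 0.482 FPKM in DMSO or EPZ, so the levels above 10 FPKM were seen with both agents together. TRIB2, which encodes a pseudokinase, went from 6.51 and 6.88 FPKM in ENZ to 99.2 and 107 in Combination, against 3.4 and 3.18 in DMSO. The antiproliferative gene BTG1 went from 19.3 and 19.2 FPKM in ENZ to 158 and 174 in Combination and had 109 and 114 FPKM in EPZ. DAPK1, the death-associated protein kinase 1 gene, went from 0.198 and 0.175 FPKM in ENZ to 10.1 and 9.37 in Combination. PLA2G2A, a secreted phospholipase gene, went from 103 and 96.6 FPKM in ENZ to 844 and 948 in Combination, the highest level after IGFBP3 among the 12. The changes were 3.75 for TRIB2, 3.17 for DAPK1, 3.15 for PLA2G2A, 3.07 for UPK2, 3.04 for BTG1 and 2.90 for UPK1A. Exons of 9 of the 24 highest and lowest genes overlap another annotated gene, THBS1, TNC, LRRN1, UPK2, BTG1 and UPK1A among them. As no source used here gives the strand setting of the counting, reads of such pairs cannot be told apart.

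Cell cycle genes fell furthest. All 64 tested genes of G2/M and mitosis were lower, with a median of -2.66, and all 47 genes of G1/S and DNA replication, with a median of -2.18, beside -0.15 for all tested genes. After scaling 64 and 46 were lower. At least 2-fold lower were 63 of the G2/M and 44 of the G1/S genes. The summed level of the G2/M genes was 1795 and 1917 FPKM in the ENZ libraries and 257 and 256 in the Combination libraries. For the G1/S genes the sums were 1424 and 1445 against 292 and 290 FPKM. Both lists therefore lay several-fold below ENZ in both Combination libraries, as the plot of list members shows.

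**Figure D2:**
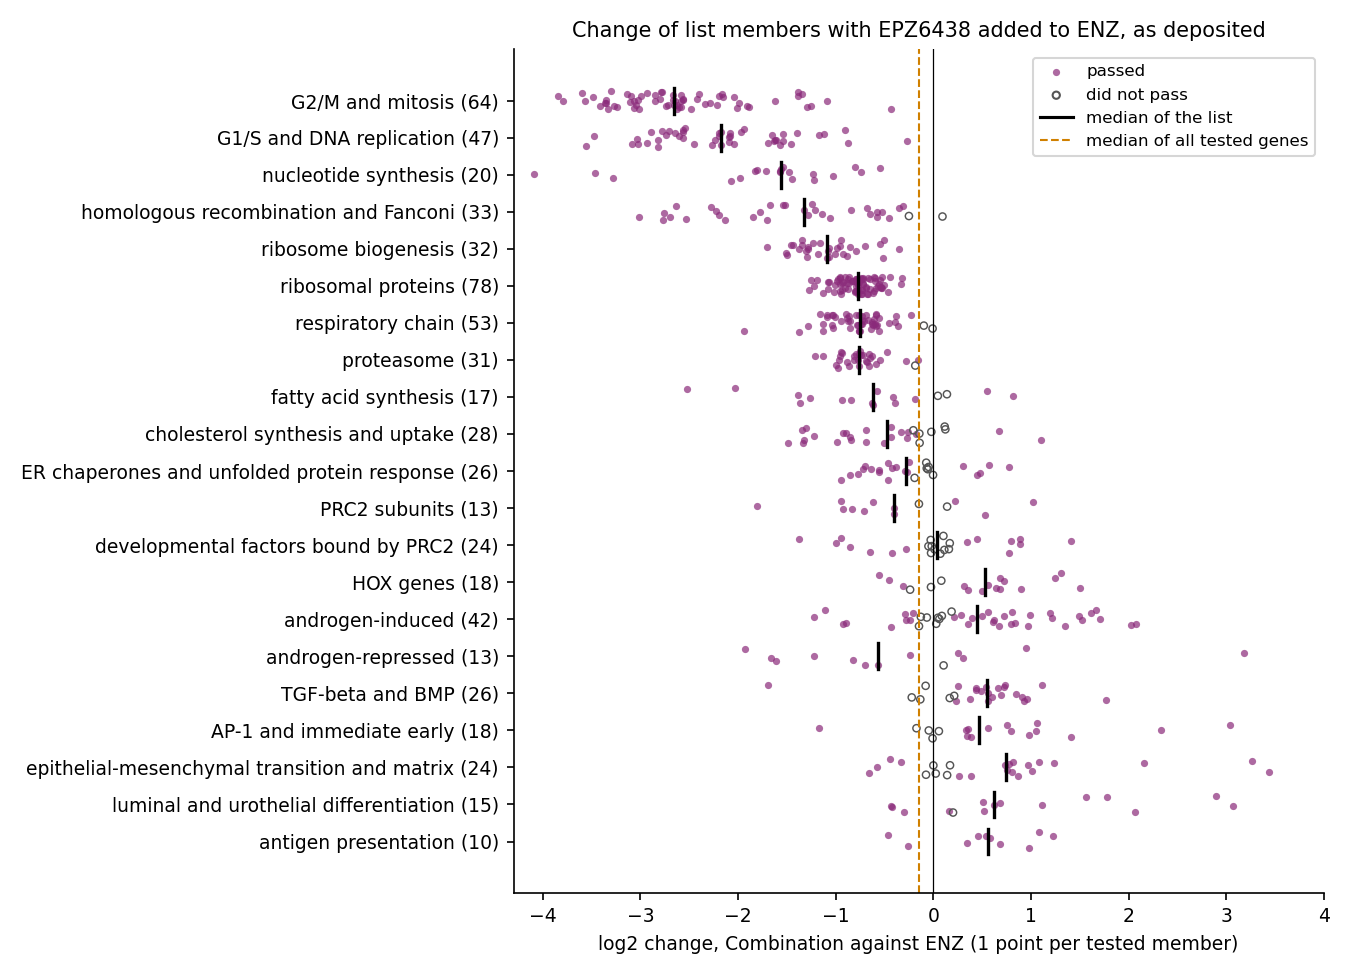
Log2 change of Combination against ENZ for the tested members of 21 gene lists, with the number tested in parentheses; filled points passed at an adjusted p under 0.05, open points did not, the black bar is the list's median and the dashed line the median of all tested genes (-0.15). Every member of the G2/M list (median -2.66) and of the G1/S list (median -2.18) lies left of 0, while the matrix list (median 0.74) lies mostly right of it.

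RRM2, the small subunit of ribonucleotide reductase, had the lowest change. Its level was 99.97 and 103 FPKM in the DMSO libraries, 71.8 and 80.3 in those with ENZ, 41.8 and 43.3 in those with EPZ and 3.44 and 3.58 in Combination. Its change was -4.09 (SE 0.065), and its ENZ mean was 21.7-fold the Combination mean. MYBL2, the B-MYB transcription factor that activates mitotic genes, went from 74.1 and 71.1 FPKM in ENZ to 3.9 and 4.34 in Combination. The mitotic kinase gene AURKB went from 45.4 and 46.2 FPKM in ENZ to 2.59 and 2.16 in Combination, and CDK1, the kinase that drives entry into mitosis, from 69.1 and 82.6 FPKM in ENZ to 5.27 and 5.69 in Combination. TOP2A, the topoisomerase that untangles replicated chromosomes, went from 50.3 and 58.2 FPKM in ENZ to 3.62 and 3.51 in Combination. MKI67, which encodes the proliferation marker Ki-67, went from 36 and 38.6 FPKM in ENZ to 2.62 and 2.22 in Combination. In MKI67 the DMSO libraries, at 32.5 and 33.7 FPKM, lay below the ENZ libraries, and the EPZ libraries, at 18.9 and 17.2, lay between ENZ and Combination.

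Replication genes were among the lowest as well. CDC45, a subunit of the replicative helicase, went from 33.1 and 32.8 FPKM in ENZ to 1.98 and 2.15 in Combination, and MCM10, a replication initiation factor, from 18.3 and 20.4 FPKM in ENZ to 0.775 and 0.672 in Combination. KIAA0101, which encodes a PCNA-associated factor, went from 31.9 and 36.3 FPKM in ENZ to 1.88 and 1.69 in Combination. The thymidine kinase gene TK1 went from 173 and 156 FPKM in ENZ to 13.9 and 14 in Combination. LMNB1 (lamin B1) went from 61.2 and 61.1 FPKM in ENZ to 4.04 and 4.7 in Combination and the histone chaperone gene ASF1B from 58 and 58.3 FPKM in ENZ to 4.61 and 4.34 in Combination. In each of these the highest Combination library lay below the lowest ENZ library, as the choice of genes required, and by more than the gap between replicates. The changes were -3.85 for MYBL2, -3.80 for AURKB, -3.65 for KIAA0101, -3.60 for TOP2A, -3.56 for CDK1 and -3.56 for MCM10. They were -3.53 for LMNB1, -3.49 for MKI67, -3.47 for CDC45, -3.47 for TK1 and -3.43 for ASF1B.

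Further members chosen by the smallest p behaved alike. CDC20, the activator of the anaphase-promoting complex, changed by -3.33, BIRC5 (survivin) by -3.36, the licensing factor gene CDT1 by -3.09, the helicase subunit gene MCM2 by -2.74 and the flap endonuclease gene FEN1 by -2.71. All 20 nucleotide synthesis genes fell (median -1.56), among them TYMS, thymidylate synthase, by -3.28 and RRM1 by -1.81. Of 33 tested homologous recombination and Fanconi genes 31 fell and none rose (median -1.32), with EXO1 at -3.02, UBE2T at -2.77, BRCA1 at -2.70 and FANCI at -2.64. Mismatch and excision repair was split, with 17 of 22 lower and 2 higher, beside 45.5% lower and 25.3% higher of all tested genes. PARP1, which senses DNA breaks, changed by -1.34 and the uracil glycosylase gene UNG by -1.99 and the glycosylase gene NEIL3 by -2.27, while its relative NEIL1 rose from 5.25 and 4.95 FPKM to 15.7 and 15.7. Among cyclin D, CDK and RB family genes 15 of 19 fell and 3 rose, with the repressor genes E2F8 at -2.49 and E2F7 at -2.13.

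Genes of G2/M are often driven through a CHR element and CCAAT boxes, and genes of G1/S through E2F sites, so the upstream sequences were searched for these letters. The windows are the 250 bases before each start in the RefSeq promoter table (GRCh38.p14), on the gene's strand. The motifs were TTTGAA for the CHR, CCAAT for the CCAAT box and TTTCCCGC or TTTGGCGC for E2F, on both strands, and none of these contains another. Of 64 tested G2/M genes 55 matched the table, of 47 G1/S genes 40 and of all 11874 tested genes 9352. A CHR was present in 49.1% of the G2/M windows, 0% of the G1/S windows and 7.71% of all tested genes. A CCAAT box was present in 74.5%, 57.5% and 36.1%, in that order. Either E2F form was present in 3.64% of G2/M windows, 37.5% of G1/S windows and 3.33% of all. A match is a description of letters and not a site, and no test was made of these shares.
Shown are the 2 G2/M genes with the largest fall whose window holds both a CHR and a CCAAT box, and the G1/S gene with the largest fall whose window holds an E2F form, with matches in capitals.
TOP2A, chr17:40417897-40418146, minus strand: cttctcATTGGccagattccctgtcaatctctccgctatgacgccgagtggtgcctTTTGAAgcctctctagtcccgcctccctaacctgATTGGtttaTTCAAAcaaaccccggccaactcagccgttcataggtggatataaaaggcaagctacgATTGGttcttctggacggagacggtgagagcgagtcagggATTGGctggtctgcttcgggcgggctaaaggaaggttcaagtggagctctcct
CDK1, chr10:60778081-60778330, plus strand: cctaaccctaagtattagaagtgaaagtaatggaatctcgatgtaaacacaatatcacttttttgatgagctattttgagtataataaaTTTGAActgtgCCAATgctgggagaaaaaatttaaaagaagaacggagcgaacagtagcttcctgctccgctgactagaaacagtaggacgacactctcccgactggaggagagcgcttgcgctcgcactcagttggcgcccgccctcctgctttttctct
CDT1, chr16:88803539-88803788, plus strand: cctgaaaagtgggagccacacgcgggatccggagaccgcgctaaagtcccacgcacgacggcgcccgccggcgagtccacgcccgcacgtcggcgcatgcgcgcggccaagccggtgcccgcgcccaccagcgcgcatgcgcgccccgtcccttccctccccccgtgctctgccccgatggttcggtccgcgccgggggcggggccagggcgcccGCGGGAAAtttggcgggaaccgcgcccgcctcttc
The TOP2A window held 2 CHR and 4 CCAAT matches, the first of them 244 bases before the start. The CDK1 window held a CHR 161 bases and a CCAAT box 150 bases before the start. The CDT1 window held an E2F form on the opposite strand, 35 bases before the start. These genes fell by 3.60, 3.56 and 3.09 on the log2 scale, in that order.

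Genes for ribosomes, respiration and protein turnover fell by smaller steps and with few exceptions, beside 45.5% lower and 25.3% higher of all tested genes. The reference genes of the housekeeping list fell to a like extent, with 11 of 14 lower and 1 higher. Their median was -0.75 as deposited and -0.32 after quantile normalization. For ribosome biogenesis, 32 of 32 genes fell (median -1.09), and 32 were lower after scaling. FBL, the methyltransferase fibrillarin, went from 172 and 159.7 FPKM in ENZ to 50.2 and 50.5 in Combination, NCL (nucleolin) from 323 and 344 FPKM in ENZ to 119.5 and 125 in Combination and NOP56 from 100.1 and 94.9 FPKM in ENZ to 32.4 and 34.6 in Combination. All 78 ribosomal protein genes fell (median -0.77), 75 after scaling (median -0.58) and 66 after quantile normalization (median -0.33). RPL4 changed by -1.23 and RPS2 by -1.19, with the limit that ribosomal protein genes share reads with many pseudogene copies. Of 53 respiratory chain genes 51 fell (median -0.75), with the ATP synthase genes ATP5G1 at -1.94 and ATP5B at -1.28. Of 31 proteasome genes 30 fell (median -0.76), with PSMC3 at -1.21 and PSMB5 at -1.13. MYC, a regulator of many of these genes, stood at 76.5 and 75 FPKM with DMSO, 43.4 and 42 with ENZ, 70.0 and 70.0 with EPZ and 18.9 and 18 with Combination, a change of -1.17 (SE 0.053). The MYC antagonist gene MXD4 moved the other way, from 24.2 and 21.2 FPKM in ENZ to 42.8 and 41.3 in Combination. Of 11 tested MYC network genes 3 rose and 3 fell (median -0.018). Any part of MYC in the falls of the other lists was not tested.

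Changes over all tested genes moved with gene length. Of the tested genes 98% had an exonic length in GENCODE release 29, and these were split into 10 bins of equal number. The median change was -0.28 in the bins from 1848 to 2711 and from 2711 to 3453 bases, and 0.018 in the bin from 10436 to 44677 bases. After scaling the values were -0.12, -0.11 and 0.19. The bin of the shortest genes, 47 to 1848 bases, stood at -0.20 as deposited and -0.047 after scaling. In ENZ against DMSO the medians were -0.13 from 1848 to 2711 bases and 0.13 in the longest bin. For EPZ against DMSO they were -0.12 from 2711 to 3453 bases and 0.034 in the longest bin, so the trend was not particular to Combination against ENZ. Members of the ribosomal protein list had a median exonic length of 3056 bases and those of the respiratory chain list 2711, against 4394 for G2/M. Exonic length here counts the exons of all annotated transcripts of a gene, so it can exceed the length of an mRNA. The median changes were -0.77 for ribosomal proteins, -0.75 for the respiratory chain and -2.66 for G2/M. The part of length in the list medians was not tested.

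**Figure D3:**
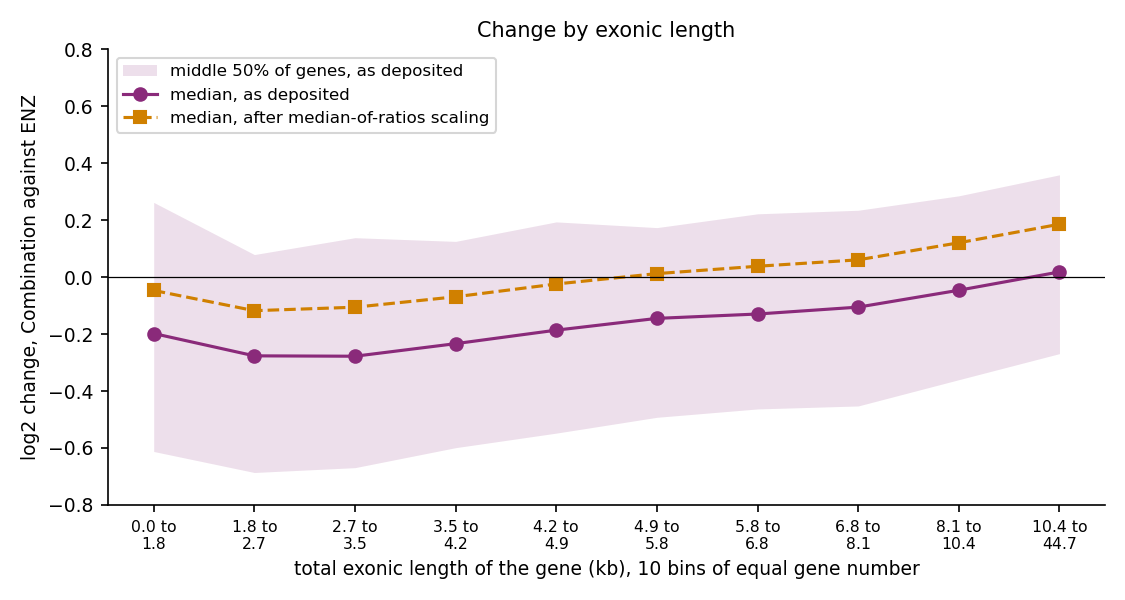
Median log2 change of Combination against ENZ in 10 bins of total exonic length, as deposited (circles, with the middle 50% of genes shaded) and after median-of-ratios scaling (squares). As deposited the medians run from -0.28 in the bins between 1848 and 3453 bases to 0.018 in the bin of the longest genes, with -0.20 in the bin of the shortest.

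Metabolic genes under the control of lipid and stress factors were mostly lower, beside 45.5% lower and 25.3% higher of all tested genes. In fatty acid synthesis 13 of 17 members fell against 2 that rose (median -0.62). SCD, the stearoyl desaturase gene, went from 133 and 139 FPKM in ENZ to 31.1 and 34 in Combination, and the desaturase gene FADS1 from 57.4 and 58.7 FPKM in ENZ to 9.23 and 9.25 in Combination. ACLY, which supplies acetyl-CoA, changed by -0.93, while the phosphatidate phosphatase gene LPIN1 rose by 0.82. Of 28 cholesterol genes 20 fell and 2 rose (median -0.47), with the sterol sensor partner INSIG1 at -1.34 and, upward, SC5D at 1.10. In the hypoxia and glycolysis list 21 of 30 fell against 7 that rose. LDHA, lactate dehydrogenase, went from 112 and 118 FPKM in ENZ to 30.6 and 29.8 in Combination, the enolase gene ENO1 from 385 and 366 FPKM in ENZ to 158 and 161 in Combination and the often used reference gene GAPDH from 1104 and 1025 FPKM in ENZ to 424 and 441 in Combination. The prolyl hydroxylase gene EGLN3 rose, from 3.26 and 3.86 FPKM in ENZ to 20.1 and 19.7 in Combination, with 2.3 and 2.45 FPKM in EPZ. Its change without ENZ was -0.22 and did not pass (adjusted p = 0.0644, limma), and the difference of effects was 2.42. Of 22 ATF4 and amino acid stress genes 13 fell and 7 rose (median -0.72), a split among calls near that of all tested genes as deposited. After median-of-ratios scaling it was again 13 and 7, beside 34% lower and 35.7% higher of all genes. The amino acid transporter genes SLC7A5 and SLC1A5 changed by -2.22 and -1.67 the folate enzyme gene MTHFD2 by -2.07 and the serine synthesis gene PSAT1 by -1.50, whereas the stress factors DDIT3 and ATF3 changed by 0.54 and 0.80.

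Endoplasmic reticulum chaperone and unfolded protein response genes mostly rose when EPZ6438 was added to DMSO. In ENZ more fell than rose as deposited and after median-of-ratios scaling, but not after quantile normalization. Of 26 tested, 15 fell and 5 rose when EPZ6438 was added to ENZ (8 and 10 after quantile normalization). In that comparison as deposited 45.5% of all genes were lower and 25.3% higher. When EPZ6438 was added to DMSO, 22 members rose and 1 fell. For EPZ against DMSO 23.4% of all genes were higher and 32.4% lower. MANF, a secreted chaperone cofactor, stood at 89.7 and 87.7 FPKM in DMSO and 101 and 106 in EPZ, and at 65 and 65 in ENZ and 36.4 and 39.2 in Combination. PDIA6, a disulfide isomerase gene, went from 76.8 and 73.9 to 87.9 and 94.8 without ENZ, and from 68.6 and 68 FPKM in ENZ to 41 and 42.2 in Combination. The difference of effects, for which 9.99% of all genes were higher and 29.6% lower, was lower in 24 of 26 members and higher in none, with values of -0.99 for MANF, -0.98 for PDIA6, -0.98 for CANX and -0.86 for SEC61B. The median change of Combination against ENZ was -0.28 as deposited and 0.10 after quantile normalization, while under the latter 21 members were lower in the difference. Calreticulin (CALR) changed by -0.46 as deposited and by 0.095 after quantile normalization (adjusted p = 0.0617, limma). The response genes DNAJB9 and ERN1 were among the 5 that rose, by 0.78 and 0.48.

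Polyamine genes moved in both directions, and of 11 the difference of effects was lower in 4 and higher in 1. These counts are near the shares of all tested genes, 29.6% lower and 9.99% higher. ODC1, ornithine decarboxylase, the first enzyme of polyamine synthesis, stood at 372 and 361 FPKM in the DMSO libraries, 203 and 206 in those with ENZ, 714 and 803 in those with EPZ and 89.5 and 88.6 in Combination. It thus rose with EPZ6438 in DMSO and fell with EPZ6438 in ENZ, and no groups overlapped. The spermine synthase gene SMS went from 60.4 and 59.2 to 130.4 and 146 FPKM without ENZ, and from 32.8 and 32.5 FPKM in ENZ to 19.3 and 18.3 in Combination. SRM, spermidine synthase, fell in both, by 0.66 without and 1.72 with ENZ on the log2 scale. SAT1, which acetylates polyamines for export and breakdown, rose by 1.35. Of 11 polyamine genes 6 fell and 3 rose, near the 45.5% and 25.3% of all tested genes, and after quantile normalization 4 and 4.

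Androgen-induced genes rose more often than they fell, and most stayed under their DMSO level. Of 42 tested androgen-induced genes 25 rose and 9 fell when EPZ6438 was added to ENZ (median 0.45), and 29 rose and 5 fell after scaling. In that comparison 25.3% of all genes were higher and 45.5% lower, and 35.7% and 34% after scaling. ENZ against DMSO had lowered 37 of the 42, in a comparison with 27.9% of all genes higher and 28.8% lower. In Combination against DMSO 32 were still lower and 5 higher, with 33.3% of all genes higher and 47.4% lower. The summed level of the 42 genes was 3381 and 3454 FPKM for DMSO, 1203 and 1212 for ENZ, 7143 and 7309 for EPZ, and 1450 and 1497 for Combination. The sum in Combination was thus above ENZ but well under DMSO, and EPZ was highest. The plot of androgen-regulated genes gives single members by library.

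**Figure D4:**
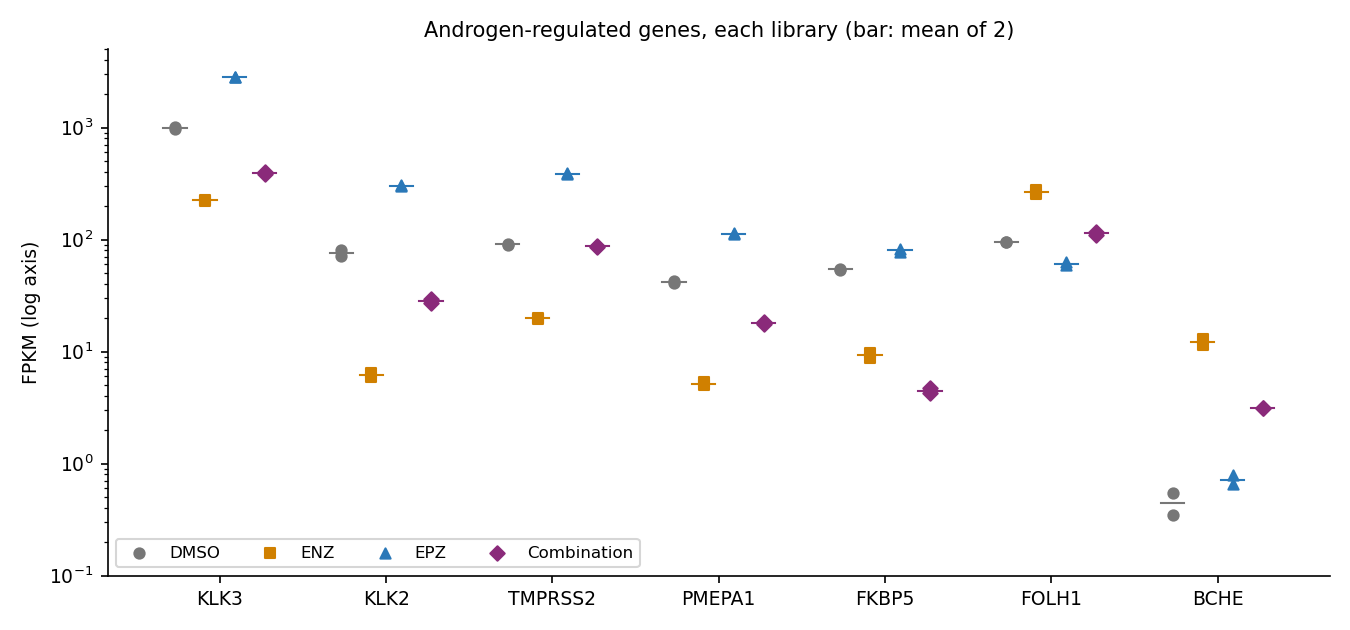
FPKM of 7 genes in each library on a log axis, with a bar at the mean of each group's 2 libraries: 5 androgen-induced genes, and FOLH1 and BCHE from the androgen-repressed list. TMPRSS2 in Combination (86.1 and 88.4) is close to DMSO (92.3 and 90.1), while FKBP5 in Combination (4.69 and 4.28) lies below ENZ (8.69 and 9.79).

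TMPRSS2, an androgen-driven serine protease gene, stood at 92.3 and 90.1 FPKM with DMSO, 19.7 and 20.04 with ENZ, 381 and 396 with EPZ and 86.1 and 88.4 with Combination. Its change was 2.08 (SE 0.050) with ENZ and 2.08 (SE 0.050) without it, and Combination against DMSO did not pass (-0.06, adjusted p = 0.267, limma). KLK2, a kallikrein gene, went from 6.46 and 5.97 FPKM in ENZ to 29.5 and 27.1 in Combination, and PMEPA1, an inhibitor of TGF-beta signalling, from 5.33 and 5.02 FPKM in ENZ to 17.7 and 18.2 in Combination. Their levels in Combination lay between those in ENZ and in DMSO. KLK3 went from 225 and 223 FPKM in ENZ to 383 and 400.2 in Combination, a change of 0.80 (SE 0.047), with 978 and 1015 FPKM in DMSO. Reads of KLK2 and KLK3, which are close copies, may have been split between them, which leaves each value uncertain.

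FKBP5, a co-chaperone of steroid receptors, went the other way. It stood at 53.7 and 54.5 FPKM in the DMSO libraries, 8.69 and 9.79 in those with ENZ, 77.7 and 82.6 in those with EPZ and 4.69 and 4.28 in Combination, so it was higher with EPZ6438 without ENZ and lower with EPZ6438 in ENZ. Among androgen-induced genes UAP1, an enzyme of sugar nucleotide synthesis, changed by -1.11 and MPHOSPH9 by -1.22. Of 13 androgen-repressed genes 8 fell and 4 rose, beside 45.5% lower and 25.3% higher of all tested genes. FOLH1, prostate-specific membrane antigen, went from 257 and 275 FPKM in ENZ to 111 and 116.05 in Combination and the cholinesterase gene BCHE from 11.4 and 12.9 FPKM in ENZ to 3.14 and 3.12 in Combination. GRIN3A, on the same list, rose by 0.95, and LRRN1, described above, is also on it and rose. Glucocorticoid-induced genes, which overlap with androgen-induced genes, rose in 7 and fell in 3 of 11, with the zinc finger gene ZBTB16 at 2.31 and the kinase gene SGK1 at 0.97. MT2A, a metallothionein whose reads are shared with close copies, changed by -1.76.

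Of 8 tested prostate lineage factor genes 5 rose and 1 fell, beside 25.3% higher and 45.5% lower of all tested genes. The pioneer factor gene GATA2 went from 87.6 and 78.8 FPKM in ENZ to 164 and 175 in Combination, the epithelial factor gene GRHL2 from 33.5 and 35.1 FPKM in ENZ to 66.2 and 68.7 in Combination and SOX9 from 1.16 and 1.22 FPKM in ENZ to 4.15 and 5.16 in Combination. HOXB13, the prostate homeobox factor, was the member that fell, from 129 and 125 FPKM in ENZ to 82.6 and 89 in Combination. Of 15 seminal and secretory protein genes 11 rose and 1 fell. AGR2, a disulfide isomerase of secretory cells, went from 1.32 and 1.17 FPKM in ENZ to 10.7 and 11.1 in Combination.

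Transcripts of the target complex fell in part. EZH2 stood at 26.2 and 25.4 FPKM in the DMSO libraries, 23.4 and 26.3 in those with ENZ, 16.1 and 14.7 in those with EPZ and 6.47 and 6.28 in Combination. The change was -1.81 (SE 0.072) with ENZ and -0.71 (SE 0.072) without it. EPZ6438 acts on the enzyme's activity, so its transcript does not check the treatment. Of 13 PRC2 subunit genes 8 fell and 3 rose, beside 45.5% lower and 25.3% higher of all tested genes. PHF19, an accessory subunit, changed by -0.95 and the histone-binding subunit gene RBBP7 by -0.93. EZH1, the alternative catalytic subunit, rose by 0.53 and the accessory subunit gene JARID2 by 1.03. PRC1 subunit genes had 6 higher and 2 lower of 17 (8 and 2 under median-of-ratios scaling, 10 and 2 under quantile normalization), with PCGF5 at 0.89 and CBX2 at -1.01. Of 25 DNA and histone methylation enzyme genes 11 rose and 10 fell. DNMT1, the maintenance DNA methyltransferase, went from 69.4 and 65.5 FPKM in ENZ to 15.3 and 15.8 in Combination and its partner UHRF1 from 9.62 and 8.82 FPKM in ENZ to 0.489 and 0.482 in Combination. KDM6B, which removes the methyl mark that EZH2 places, went from 15.7 and 13.2 FPKM in ENZ to 33.2 and 33.8 in Combination and the de novo methyltransferase gene DNMT3A rose by 0.79.

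Of 74 developmental factor genes often bound by PRC2, 24 passed the expression filter, and 7 rose, 7 fell and 10 did not pass as deposited. The balance moved with the processing, to 12 higher against 6 lower under median-of-ratios scaling, and to 10 against 7 under quantile normalization. With no expression filter 17 of the listed genes were higher and 8 lower. The median of the 24 was 0.042 as deposited, beside -0.15 for all tested genes, of which 25.3% were higher and 45.5% lower. KLF4 changed by 1.41 and ZIC2 by 0.89, while the homeobox genes IRX4 and DLX1 changed by -1.37 and -0.99. Of 29 genes reported as EZH2-repressed 9 passed the filter, 4 rose and 2 fell, IGFBP3 among those that rose. With no expression filter 9 of the 29 were higher and 2 lower.

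HOX genes, which are arranged in clusters and kept silent by PRC2 outside their domain, mostly rose when EPZ6438 was added to ENZ. Of 38 HOX genes 18 were tested, and 12 rose and 3 fell (median 0.53), beside 25.3% higher and 45.5% lower of all tested genes. In EPZ against DMSO 3 rose and 4 fell, with 23.4% of all genes higher and 32.4% lower. In ENZ against DMSO 11 rose and 1 fell, with 27.9% of all genes higher and 28.8% lower. HOXA13 stood at 0.671 and 1.1 FPKM with DMSO, 3.18 and 3.56 with ENZ, 0.684 and 0.819 with EPZ and 8.91 and 10.8 with Combination. HOXA11 went from 6.24 and 5.57 FPKM in ENZ to 16.4 and 14.5 in Combination and HOXC4 from 2.17 and 1.74 FPKM in ENZ to 7.3 and 7.45 in Combination, with 2.3 and 2.09 and 1.71 and 1.64 in EPZ. Without ENZ, HOXA11 fell with EPZ6438 (-0.51) and HOXA13 did not pass (-0.10). The difference of effects was higher in 9 and lower in 2 of the 18, with 1.76 for HOXA11, 1.41 for HOXA13 and 0.82 for HOXC4. The exons of HOXC4 overlap those of HOXC5 and HOXC6.

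Of 25 tested histone genes 14 fell and 8 rose, beside 45.5% lower and 25.3% higher of all tested genes. After quantile normalization 10 fell and 10 rose. The variants H2AFX and H2AFZ changed by -2.79 and -1.60. HIST1H2BC and HIST1H2BD rose by 1.04 and 0.88. No source used here says whether polyadenylated RNA was selected, and histone genes share reads among close copies, so their levels are uncertain.

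Of 26 TGF-beta and BMP genes 20 rose and 1 fell (median 0.55), beside 25.3% higher and 45.5% lower of all tested genes. After median-of-ratios scaling 22 rose and 1 fell, beside 35.7% and 34%. ID1 and ID3, direct targets of BMP signalling, went from 62.5 and 60.9 FPKM in ENZ to 136 and 133 in Combination and from 26.1 and 27.1 FPKM in ENZ to 50.9 and 52.1 in Combination. INHBA, an activin subunit, changed by 1.77 and SMAD9 by 0.96, while the ligand gene BMP7 changed by -1.69. Of 18 AP-1 and immediate early genes 13 rose and 1 fell. JUN, an AP-1 subunit, went from 13.6 and 12.8 FPKM in ENZ to 28.5 and 28.9 in Combination. The RNA-binding factor gene ZFP36L2 went from 21.3 and 21.4 FPKM in ENZ to 108 and 115.62 in Combination. MYC was the member that fell.

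Of 24 tested mesenchymal and matrix genes 15 rose and 4 fell (median 0.74), beside 25.3% higher and 45.5% lower of all tested genes. The collagen gene COL12A1 went from 4.51 and 4.32 FPKM in ENZ to 23.4 and 23 in Combination and the laminin gene LAMC1 from 47.5 and 44.8 FPKM in ENZ to 76.8 and 80.2 in Combination. EPCAM, an epithelial adhesion gene that stood on the list as a contrary member, went from 89.1 and 89.4 FPKM in ENZ to 58.8 and 60.5 in Combination. These rises stood beside the fibroblast marker sum of 10.7 FPKM in Combination, where COL1A1 alone was at 10.5 and 10.4 FPKM and COL1A2 at 0. Of 15 luminal and urothelial genes 11 rose and 3 fell (median 0.62), with the keratin gene KRT80 from 1.45 and 1.66 FPKM in ENZ to 9.76 and 9.67 in Combination and the epithelial factor ELF3 from 10.5 and 9.62 FPKM in ENZ to 36.5 and 37.4 in Combination. EHF, which lies on this list, changed by -0.42 as deposited and by -0.000184 after quantile normalization (adjusted p = 0.998, limma). Of 10 tested antigen presentation genes 8 rose and 2 fell, with HLA-B at 1.23 and TAPBPL at 1.08. HLA class I genes share reads. Of 17 interferon response genes 11 rose and 5 fell, with PARP14 at 1.06, STAT2 at 0.72 and OAS3 at -1.69. These immune-related rises stood beside CD68 at 6.91 and 6.43 FPKM in ENZ and 12 and 11 in Combination, with CD3E at 0 and PTPRC at 0.0412 FPKM or less in every library.

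Inhibitors of the cycle did not move as a group. For the counts that follow, 45.5% of all tested genes were lower and 25.3% higher as deposited. CDKN1A, which encodes p21, stood at 33.8 and 32.5 FPKM in the DMSO libraries, 22.6 and 20.6 in those with ENZ, 52 and 53.1 in those with EPZ and 39.4 and 41.6 in Combination, a change of 0.88 (SE 0.062). It was the single riser of 6 tested inhibitor genes, and 4 fell, CDKN2C by 1.86 and CDKN1B by 0.54 on the log2 scale. Of 27 p53 targets 12 rose and 11 fell (median 0.032). The kinase gene PLK2 and the antiproliferative gene BTG2 rose by 1.84 and 1.05 and TP53INP1 by 1.36, while AEN and DDB2 changed by -1.02 and -0.81. Of 13 BCL2 family genes 7 fell and 4 rose, near the shares of all tested genes, a balance that turned to 4 and 6 after quantile normalization. BMF, a death-promoting BH3-only gene, went from 2.57 and 2.05 FPKM in ENZ to 12.6 and 12 in Combination, the survival gene BCL2L1 from 23.2 and 22.3 FPKM in ENZ to 33 and 33.3 in Combination and BID from 10.6 and 10.0 FPKM in ENZ to 6.04 and 6.98 in Combination. In the insulin-like growth factor axis, where IGFBP3 sits, 4 of 8 tested genes rose and 3 fell. The receptor gene IGF1R went from 0.853 and 0.84 FPKM in ENZ to 3.71 and 3.69 in Combination, with 22.1 and 20.7 in EPZ, and the ligand gene IGF1 from 0.578 and 0.669 FPKM in ENZ to 0.192 and 0.211 in Combination. IGFBP2 changed by -0.52 as deposited and by -0.12 after quantile normalization (adjusted p = 0.233, limma).

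The effect of EPZ6438 with ENZ was then set against its effect without ENZ, from groups that share no library. Across the 11874 genes the effects correlated at r = 0.745, a description across genes measured in the same series of libraries. Of genes higher with ENZ present 1849 were also higher without it, which is 61.6% of the former and 66.6% of the latter. Of genes lower with ENZ present 3356 were also lower without it, which is 62.1% and 87.2%. Calls in opposite directions numbered 74 of the 3001 higher genes and 266 of the 5402 lower genes. The difference of effects itself was higher in 1186 genes (9.99%) and lower in 3517 (29.6%), and after scaling in 1958 (16.5%) and 2461 (20.7%). Without the second EPZ library 777 genes were higher. The median difference was -0.12 as deposited and 0.0032 after scaling.

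**Figure D5:**
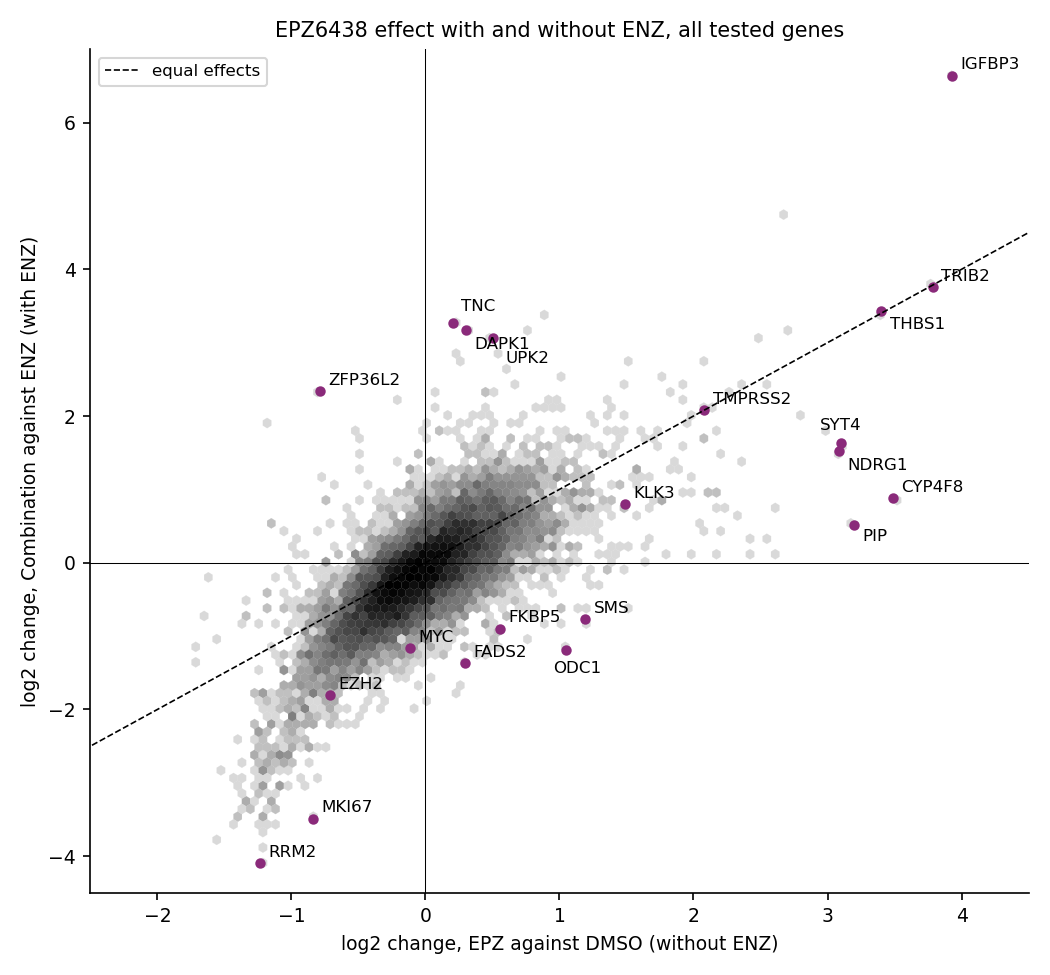
Log2 change with EPZ6438 in the presence of ENZ (Combination against ENZ, vertical axis) against its absence (EPZ against DMSO, horizontal axis) for 11874 genes, as hexagons darker where more genes fall, with named genes as points and a dashed line of equal effects. RRM2 (-4.09 against -1.23) and MKI67 lie below the line and IGFBP3, TNC and ZFP36L2 above it, while TRIB2 and TMPRSS2 lie on it.

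Nearly all cell cycle genes were on the lower side. The difference was lower in 63 of 64 G2/M genes (median -1.51) and in 46 of 47 G1/S genes (median -1.22). RRM2 changed by -1.23 without and -4.09 with ENZ, a difference of -2.86 (SE 0.092). The differences were -2.65 for MKI67, -2.61 for MYBL2 and -2.46 for KIAA0101. These genes fell in both backgrounds and further with ENZ, and the same held for EZH2, with a difference of -1.10. PIP and CYP4F8, which encode a secretory protein and a fatty acid hydroxylase, had lower differences of another kind. PIP stood at 0.225 and 0.0856 FPKM with DMSO, 0 and 0.0797 with ENZ, 8.46 and 10.8 with EPZ and 0.45 and 0.53 with Combination, and CYP4F8 at 1.22 and 0.957, 0.0817 and 0.0481, 22.9 and 21.9 and 1.25 and 0.705. Both genes were highest in the EPZ libraries, and the differences were -2.68 and -2.61.

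On the higher side ZFP36L2 had the largest difference among named genes, 3.12 (SE 0.080). It stood at 16.8 and 16.7 FPKM in the DMSO libraries, 21.3 and 21.4 in those with ENZ, 9.38 and 9.24 in those with EPZ and 108 and 115.62 in Combination, so it fell without ENZ and rose with it. TNC, DAPK1, IGFBP3, UPK1A and UPK2 followed, with differences of 3.06, 2.87, 2.71, 2.67 and 2.56. Levels in EPZ were 69.2 and 64.1 FPKM for IGFBP3 and at most 0.482 FPKM for the other 4. Androgen-induced genes were mostly lower in the difference, 28 of 42 against 4 higher, beside 29.6% lower and 9.99% higher of all tested genes. After median-of-ratios scaling 25 were lower and 5 higher, beside 20.7% and 16.5%. KLK3 had a difference of -0.69 and FKBP5 of -1.46, whereas those of TMPRSS2 (0.00, adjusted p = 0.997) and KLK2 (0.04, adjusted p = 0.801) did not pass in limma. For TMPRSS2 and KLK2 the fitted effects with and without ENZ thus differed by less than their error allowed to be called. Genes that moved oppositely, with the change without ENZ first, were ODC1 (1.05 and -1.19), SMS (1.19 and -0.77), FADS2 (0.29 and -1.37) and FKBP5 (0.56 and -0.90). Exons of FADS2 overlap those of FADS1 and FEN1. The hypoxia-responsive gene NDRG1 and the synaptotagmin gene SYT4 rose in both, less with ENZ, by 3.09 and 1.53 and by 3.10 and 1.64. Beside COLCA1, the 164 genes named here with a change passed in limma and had both Combination libraries outside both ENZ libraries, with the highest adjusted p, 0.00425, for PIP. Over all 11874 tested genes 9902 had such libraries, and among the 8403 called genes 8398 did, so this does not set the named genes apart.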

How the data were processed

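RNA-seq libraries were made with the NEBNext Ultra kit and sequenced on a HiSeq4000, per the labels' protocols, and STAR and hg38 are named in the submitters' processing notes. The authors deposited 1 table of FPKM values per gene; no source used here gives the counting tool, annotation, strand setting or any selection of polyadenylated RNA. Of 26475 rows, 28 had symbols turned into dates. Read counts were not used here, and depth was estimated from the steps between low values. Genes averaging 1 FPKM or more across all 8 libraries were tested on log2(FPKM + 1) with limma 3.58.1 (R 4.3.3), in a moderated trend fit over all 4 groups with Benjamini-Hochberg adjustment over all tested genes. The fit had 4 residual and 5.47 prior degrees of freedom and was tested on simulated data. Contrasts were Combination against ENZ, EPZ against DMSO, their difference, and ENZ and Combination against DMSO. Tables were made with Python 3.11.15. Lengths and exon overlaps came from GENCODE release 29, and positions and promoters from RefSeq.

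Named genes were the 12 highest and 12 lowest changes with a higher group mean of at least 5 FPKM and no overlap of libraries, up to 4 called members per list by p and 2 in the other direction, 11 genes of the androgen axis, EZH2 and cell cycle, and the 6 highest and lowest differences of effects. Results for some of these genes are not reported here. Pseudogenes, small RNAs, clone-named, antisense, read-through, mitochondrial and Y-linked genes were left out. Members and the 54 lists were chosen with earlier results of these data known. Alternatives were another pseudocount, filters, scalings, the compared groups alone, a replicate block and leaving out each library.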

Additional observations from a re-analysis of the deposited data

Results flagged for a closer look

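The effect of EPZ6438 with ENZ differed from its effect without ENZ, by limma's test of the difference over all tested genes, in 1186 genes upward and 3517 downward. The 6 named for the highest differences had log2 values of 3.12 for ZFP36L2, 3.06 for TNC, 2.87 for DAPK1, 2.71 for IGFBP3, 2.67 for UPK1A and 2.56 for UPK2. Proliferation genes stood on the lower side, at -2.86 for RRM2, -2.65 for MKI67, -2.61 for MYBL2 and -2.46 for KIAA0101. PIP and CYP4F8 were at -2.68 and -2.61. The differences were -1.46 for FKBP5, -1.10 for EZH2, -1.06 for MYC and -0.69 for KLK3. With 2 libraries in each group, no library could be checked against the rest of its group for standing apart.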

How the results depend on the processing

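Counts of called genes moved with the expression filter and the scaling. Genes higher in Combination than in ENZ numbered 4956 with no expression filter and 1676 with a mean of at least 5 FPKM, against 3001. Rises of 2-fold or more were 427 in the reported fit, 689 when 0.1 was the pseudocount, 200 under the stricter filter, 641 under median-of-ratios scaling and 689 under quantile normalization. The difference of effects was higher in 711 genes with the stricter filter, 1958 under median-of-ratios scaling and 2454 under quantile normalization, against 1186. Fewer or more genes were tested under the filters, and otherwise the cause was not tested. Leaving out each library in turn gave 2565 to 2940 genes higher and 4779 to 5319 lower, 394 to 481 at least 2-fold higher and 965 to 1010 at least 2-fold lower, and a difference of effects higher in 777 to 1447 and lower in 2618 to 3825 genes. Where this left a group with 1 library, that library was assumed to vary like the other groups. With the replicate number as a block, 3053 genes were higher and 5462 lower, and the difference was higher in 1255 and lower in 3687. Same-numbered libraries of ENZ and Combination deviated together at r = 0.109, and with 2 numbers the libraries share only a number. CALR reversed to 0.095 after quantile normalization. Of 2435 recomputed changes of 164 named genes, 2432 kept their direction and side of the threshold, and of 2271 differences of effects 2148 did, with 74 losing and 49 gaining the call. Most named genes were chosen by a large change or a small p in the reported fit, so their stability says little of other genes. Of 1620 list counts 117 moved. FPKM without counts limits what depth can say of low genes.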

Other observations

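Lysosome and autophagy genes rose more often than they fell when EPZ6438 was added to ENZ, with 14 higher and 8 lower of 31 as deposited, and 19 higher and 2 lower after scaling. The shares of all tested genes were 25.3% higher and 45.5% lower as deposited, and 35.7% and 34% after scaling. PSAP, the precursor of lysosomal saposins, went from 396 and 372 FPKM in ENZ to 589.9 and 609.8 in Combination. GABARAPL1, which takes part in autophagosome formation, went from 9.39 and 10.0 FPKM in ENZ to 18.3 and 17.4 in Combination, and the autophagy kinase gene ULK1 from 19.3 and 15.8 FPKM in ENZ to 30.8 and 30.9 in Combination. Retinoid genes had 6 higher and 1 lower of 9. Metallothioneins and zinc transporters went the other way, with 10 of 12 lower and 0 higher as deposited, and 8 lower and 1 higher after scaling. MT1X went from 35.2 and 31.2 FPKM in ENZ to 15.8 and 17.4 in Combination, with the limit that metallothionein genes share reads.

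Wnt genes had 8 higher and 4 lower of 19. All tested genes had 25.3% higher and 45.5% lower as deposited, and 35.7% and 34% after median-of-ratios scaling. The nuclear effector gene LEF1 went from 1.68 and 1.89 FPKM in ENZ to 7.74 and 8.3 in Combination, with 1.25 and 1.14 in EPZ, and the ligand gene WNT5A from 5.79 and 6.27 FPKM in ENZ to 18 and 19.2 in Combination, with 1.47 and 1.22 in EPZ. Both had a higher difference of effects, 1.71 and 0.90. As deposited, 7 Hippo genes were higher and 6 lower of 18, against 9 and 4 after median-of-ratios scaling and 10 and 6 after quantile normalization. PI3K genes had 8 higher and 7 lower of 20, then 10 and 3, and 11 and 3, in the same order of settings. Receptor tyrosine kinases had 6 and 6 of 14, then 6 and 5, and 8 and 5, and glycosyltransferases 7 and 5 of 17, then 9 and 3, and 8 and 4. Notch genes had 2 higher and 6 lower of 12 (4 and 6, and 5 and 5, in those settings), and steroid and UGT2B enzymes 2 and 6 of 12. SWI/SNF subunits had 2 higher and 8 lower of 17 as deposited, 6 and 6 after scaling and 8 and 6 after quantile normalization, and the reference genes of the housekeeping list had 1 higher and 11 lower of 14.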
